A study of Mus musculus with 42 samples.

Results

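The data described here are the RNA counts and the chromatin around 7 mouse genes, Myf5, Myod1, Myog, Myf6, Mef2a, Mef2c and Mef2d, chosen by gene symbol out of the 24466 genes in the count tables. Myf5, Myod1, Myog and Myf6 are the 4 myogenic regulatory factors (MRFs), and Mef2a, Mef2c and Mef2d are 3 of the Mef2 genes. The fourth Mef2 gene, Mef2b, was listed at 0 counts in all 8 RNA-seq libraries. Its annotated span overlaps another gene, and reads falling on more than 1 gene were set aside as ambiguous. Whether this accounts for the 0 counts was not tested.

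iPax7 cells are myogenic progenitors made from a mouse embryonic stem cell line, an engineered line whose Pax7 transgene is switched on by doxycycline (Dox), sorted from embryoid bodies as PDGFαR+Flk-1- cells. The +Dox group (3 RNA-seq libraries) was grown with 0.75 µg/ml Dox in medium with FGF, and the -Dox 3d group (2 libraries) was kept for 3 days in that medium without Dox. The remaining group (3 libraries) was satellite cells, the resident muscle stem cells, taken freshly from mice that carry the Pax7-ZsGreen reporter. ATAC-seq (open chromatin) region lists came from the iPax7 cultures with Dox and 12 h, 24 h or 3 days after its withdrawal, from myotubes of iPax7 cells, from satellite cells, and from C2C12 (a mouse myoblast line) as myoblasts, myotubes, flag control myoblasts or myoblasts expressing Pax7-flag. The iPax7 and C2C12 myotubes were kept in 2% horse serum and the C2C12 myoblasts in 10% fetal bovine serum. The ChIP-seq region lists read here covered Pax7 in +Dox only. Those of histone marks came from +Dox, -Dox 3d, flag control myoblasts and Pax7-flag myoblasts. Each condition had 1 deposited region list, so no chromatin difference could be tested. GEO lists the RNA-seq replicates as files of 1 sample per group, and nothing states that they came from separate cultures or animals, so the p-values measure only the spread between these libraries.

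The MRFs are basic helix-loop-helix (bHLH) transcription factors that pair with E proteins and bind the E-box, CANNTG. Myf5 and MyoD act in the determination of muscle progenitors, Myogenin (the product of Myog) drives terminal differentiation, and Myf6 (also called Mrf4) acts in determination and in mature fibers. Mef2 proteins are MADS-box factors that bind AT-rich motifs and act with the MRFs on muscle genes, while Pax7 marks satellite cells and lies upstream of Myf5.

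The libraries held between 39010958 and 54674619 reads on genes. Reads that mapped to more than 1 place made up 7.11% to 7.60% in the iPax7 libraries and 23.6% to 30.7% in the satellite cell libraries. Pearson's r between libraries of a group, over log counts of the tested genes, was 0.931 to 0.958 in +Dox, 0.944 in -Dox 3d and 0.868 to 0.883 in satellite cells. Among the +Dox libraries, library 3 had the lower r with the other libraries (0.931 and 0.934, against 0.958 between those). Pax7 was measured at 12759, 14130 and 11610 normalized counts in +Dox, at 221 and 270 in -Dox 3d, and at 8504, 3926 and 5456 in satellite cells, where a normalized count is a count scaled to a common library size by edgeR's TMM method. The counts do not tell the Dox-driven from the endogenous Pax7 transcript. The 10 satellite cell markers, Pax7 among them, summed to 666518 to 1126840 normalized counts in satellite cells. In +Dox they summed to 76871 to 87591 and in -Dox 3d to 42008 to 43936. Much of the satellite cell sum came from Sdc4, at 476110 to 786929. All 6 endothelial markers were above 10 counts in every satellite cell library, with a summed level of 13945 to 21354 normalized counts, against 1.84 to 167 in the iPax7 libraries, and the 6 fibroblast and mesenchymal markers summed to 69723 to 136951 against 4144 to 12598. Pdgfra, the gene of the surface marker used in the sort, was at 0 in both -Dox 3d libraries and at 0 to 1.502 normalized counts in +Dox. The 7 mature myofiber markers summed to between 1364550 and 1439510 in -Dox 3d, against 3078 to 3164 in +Dox. In bulk RNA, fewer cells of a type and less RNA per cell cannot be told apart.

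The promoters of Myog, Myf6 and Myod1 are printed first, because these MRF genes differed between the groups and hold motifs that the MRF and Mef2 proteins themselves bind. Each is the 200 bases before the annotated start on the gene's strand, from NCBI build 37 (mm9), the build of the deposited files. Capitals mark the E-box CANNTG (searched on both strands, it reads alike on both) and, in Myf6, the Mef2 motif. The Mef2 motif was searched as YTAWWWWTAR, where Y is C or T, W is A or T and R is A or G. The stretch ctatatttat in the Myog window departs from this pattern only at its last base and is therefore not marked. An E-box occurs in 54.1% and a Mef2 motif in 2.16% of the 18902 promoters of coding genes of this length, so an E-box match is common and neither is evidence of a binding site.
Myog, chr1:136186381-136186580: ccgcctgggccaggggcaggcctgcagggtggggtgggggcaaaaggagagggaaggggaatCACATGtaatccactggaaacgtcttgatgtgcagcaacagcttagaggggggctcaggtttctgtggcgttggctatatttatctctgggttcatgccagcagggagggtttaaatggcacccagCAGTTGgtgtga
Myf6, chr10:106931786-106931985: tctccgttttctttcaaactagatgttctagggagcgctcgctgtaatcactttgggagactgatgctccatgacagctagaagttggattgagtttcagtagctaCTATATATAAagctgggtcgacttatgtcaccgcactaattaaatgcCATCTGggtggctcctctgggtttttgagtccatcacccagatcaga
Myod1, chr7:53631644-53631843: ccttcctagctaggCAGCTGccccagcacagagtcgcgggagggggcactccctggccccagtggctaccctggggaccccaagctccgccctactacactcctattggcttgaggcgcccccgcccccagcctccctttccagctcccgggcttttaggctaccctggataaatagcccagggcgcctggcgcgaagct
In Myog the E-boxes begin 138 and 12 bases before the start. In Myf6 the Mef2 motif begins 94 bases and the E-box 47 bases before the start, and in Myod1 the E-box (here CAGCTG, found in 9.71% of the promoters) begins 186 bases before it. The Myf5, Mef2a and Mef2d windows hold neither motif, and the Mef2c window holds an E-box 100 bases before the first annotated start.

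Dox withdrawal raised Myog, Mef2c, Mef2a, Mef2d and Myf6 and lowered Myf5, and Myod1 did not pass the test. The comparison asks which factors change when Pax7 expression is removed. Of the 7 genes, 5 were higher and 1 was lower in -Dox 3d at an adjusted p under 0.05 (edgeR's quasi-likelihood test, adjusted by Benjamini-Hochberg over the 14836 tested genes), where 4.66% of the tested genes were called higher and 3.04% lower. The libraries of these groups did not overlap for 6 of the 7 genes. Such separation was common, with 3362 of the 14836 tested genes higher and 3361 lower without overlap.

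Myf5, the determination factor, stood at 111006, 130651 and 190092 normalized counts in the +Dox libraries and at 12411 and 10748 in -Dox 3d. Every +Dox library lay above both -Dox 3d libraries. The log2 fold change was -3.64 ± 0.33 (SE), a 12.4-fold lower level, with an adjusted p of 0.000234 by edgeR.

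Myog, the differentiation factor, went from 3488, 4616 and 4348 normalized counts in +Dox to 160807 and 189119 in -Dox 3d. The groups did not overlap. The log2 fold change was 5.40 ± 0.26 (SE), 42.2-fold higher, with an adjusted p of 7.75e-06 by edgeR.

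Mef2c had the largest fold change of the 7 genes. Its normalized counts were 125, 201 and 49.2 in +Dox, and 50818 and 51739 in -Dox 3d. The log2 fold change was 8.68 ± 0.59 (SE), 409-fold higher, with an adjusted p of 4.305e-05 by edgeR, and without the +Dox library 3, where Mef2c was lowest, it was 8.30.

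Mef2a and Mef2d moved the same way by less. Mef2a measured 1838, 2002 and 845 normalized counts in +Dox and 6318 and 7499 in -Dox 3d, a log2 fold change of 2.15 ± 0.38 (SE) with an adjusted p of 0.00825 by edgeR. Mef2d measured 881, 642 and 786 in +Dox and 2298 and 2258 in -Dox 3d, a log2 fold change of 1.57 ± 0.33 (SE) with an adjusted p of 0.0214 by edgeR. Neither gene's groups overlapped. The Mef2a call was lost without -Dox 3d library 2 (adjusted p by edgeR 0.0614), and the Mef2d call was lost without +Dox library 1 or 2 or either -Dox 3d library (0.0537, 0.0881, 0.128 and 0.116).

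Myf6 was close to the lower limit of counting in +Dox, with 10, 1 and 1 raw counts, against 176 and 69 in -Dox 3d. The groups did not overlap. The ratio of the summed counts, scaled for library size, was 35.5, with a 95% exact interval of 20.0 to 69.7 that covers counting error only. The fitted log2 fold change of 5.14 ± 1.29 (SE) depends on the prior count, and its adjusted p by edgeR was 0.0422. Library 1 holds 10 of the 12 +Dox counts, and without it the fitted value was 6.90. Without -Dox 3d library 1 it was 4.32. The call was lost when +Dox library 2 or 3 or either -Dox 3d library was left out, with adjusted p by edgeR of 0.13, 0.1, 0.215 and 0.0838, and in a fit blocked by replicate number (0.0561).

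Myod1 stayed low in both iPax7 groups, at 161, 118 and 321 normalized counts in +Dox and at 114.9 and 164 in -Dox 3d. The groups overlapped. The log2 fold change was -0.52 ± 0.41 (SE), with an adjusted p of 0.545 by edgeR.

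**Figure D1:**
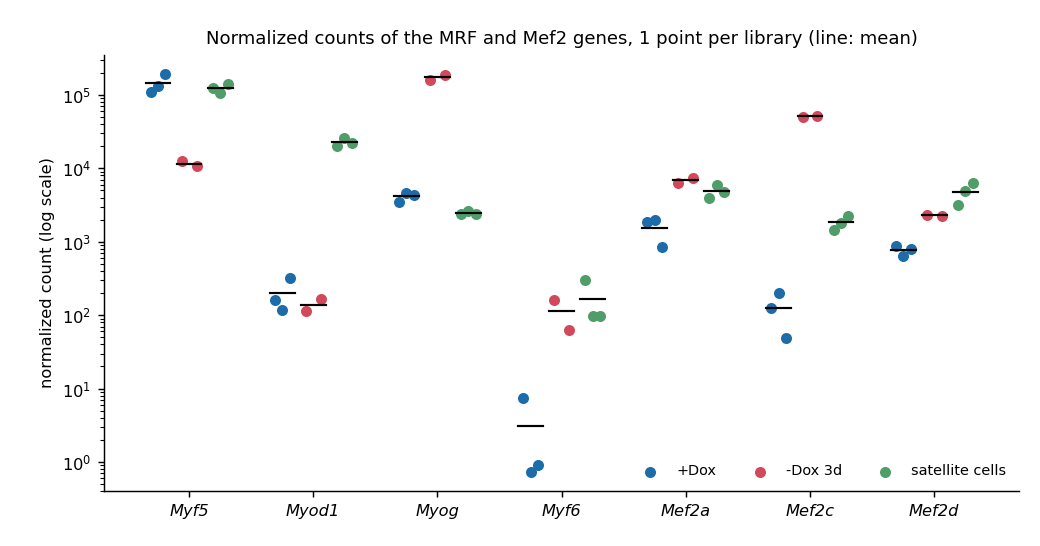
Normalized counts (log scale) of the 7 genes in the 8 RNA-seq libraries; each point is a library and each line a group mean. Myf5 is lower and Myog and Mef2c are higher in both -Dox 3d libraries than in every +Dox library, and Myod1 is at 20392 to 26074 in satellite cells and at 321 or lower in the other libraries.

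Satellite cells differed from the +Dox cultures in 6 of the 7 genes, with Myf5 the gene that did not pass the test. The comparison sets freshly isolated stem cells beside the cultured progenitors, and it shares the +Dox libraries with the withdrawal comparison. Myod1, Myf6, Mef2a, Mef2c and Mef2d were higher and Myog was lower, where 25.1% of the tested genes were called higher and 19.8% lower. The median log2 fold change over all tested genes was 0.17. The libraries did not overlap for 6 of the 7 genes, while 4474 of the 14836 tested genes were higher and 3902 lower without overlap.

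Myod1, the other determination factor, stood at 20392, 26074 and 22421 normalized counts in satellite cells. Every satellite cell library lay far above every iPax7 library. The log2 fold change against +Dox was 6.84 ± 0.46 (SE), 114.8-fold, with an adjusted p of 1.14e-05 by edgeR.

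Myf5 stood at 122890, 104725 and 140603 normalized counts in satellite cells, and the groups overlapped, with satellite cell library 2 below every +Dox library. The log2 fold change was -0.23 ± 0.25 (SE), with an adjusted p of 0.486 by edgeR, and it turned to 0.024 without +Dox library 3. Myog was lower, at 2416, 2587 and 2353 normalized counts, below each +Dox library. Its log2 fold change was -0.76 ± 0.21 (SE), 1.69-fold, with an adjusted p of 0.0153 by edgeR, and the call was lost without +Dox library 2 (adjusted p 0.0646) and when a change of at least 2-fold was required.

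Myf6 had 227, 72 and 75 raw counts in satellite cells against the 10, 1 and 1 of +Dox. The groups did not overlap. The ratio of summed counts was 52.0 with a 95% exact counting interval of 29.4 to 102, and the adjusted p by edgeR was 0.00627. The fitted log2 fold change was 5.69 ± 1.28 (SE), 7.40 without +Dox library 1 and 4.94 without satellite cell library 1.

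The 3 Mef2 genes were all higher in satellite cells than in +Dox. Mef2c measured 1435, 1784 and 2270 normalized counts, a log2 fold change of 3.87 ± 0.47 (SE) with an adjusted p of 0.000236 by edgeR. Mef2d measured 3154, 4859 and 6316, a log2 fold change of 2.63 ± 0.32 (SE), with an adjusted p of 0.000236. Mef2a measured 3969, 5938 and 4803, with a log2 fold change of 1.65 ± 0.35 (SE) and an adjusted p of 0.00451. None of the 3 overlapped between the groups. The endothelial, fibroblast and blood markers that the satellite cell libraries also hold (all 6 endothelial genes, 4 of 7 blood genes and all 6 fibroblast and mesenchymal genes above 10 counts in every library) had higher summed levels there than in +Dox. Ly6a and Cd68 overlapped between the groups, at 852 to 4725 against 2647 to 9643 and at 288 to 1718 against 158 to 464 normalized counts. The part of these markers in the result was not tested.

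Against -Dox 3d, satellite cells had more Myf5, Myod1 and Mef2d and less Myog and Mef2c, where 20.9% of the tested genes were called higher and 18.1% lower. This comparison shares its libraries with the others, and the median log2 fold change over all tested genes was 0.23. Myod1 had a log2 fold change of 7.36 ± 0.57 (SE) and Myf5 of 3.41 ± 0.33 (SE), with adjusted p of 4.021e-05 and 0.000109 by edgeR. Myog had -6.16 ± 0.26 (SE) and Mef2c -4.81 ± 0.50 (SE), with adjusted p of 3.735e-06 and 0.000156 by edgeR. Mef2d was 2.10-fold higher with an adjusted p of 0.0364 by edgeR, a call lost in 6 of the 8 fits that each left out a library (+Dox 1 or 2, -Dox 3d 1 or 2, satellite cells 2 or 3, adjusted p 0.0583 to 0.195) and with the replicate block (0.101). Mef2a had a log2 fold change of -0.49 ± 0.38 (SE) and Myf6 of 0.55 ± 1.18 (SE), with adjusted p of 0.318 and 0.740 by edgeR. The Mef2a libraries did not overlap between these groups and the Myf6 libraries did. Of the 14836 tested genes, 5002 were higher and 4535 lower in satellite cells without overlap.

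**Figure D2:**
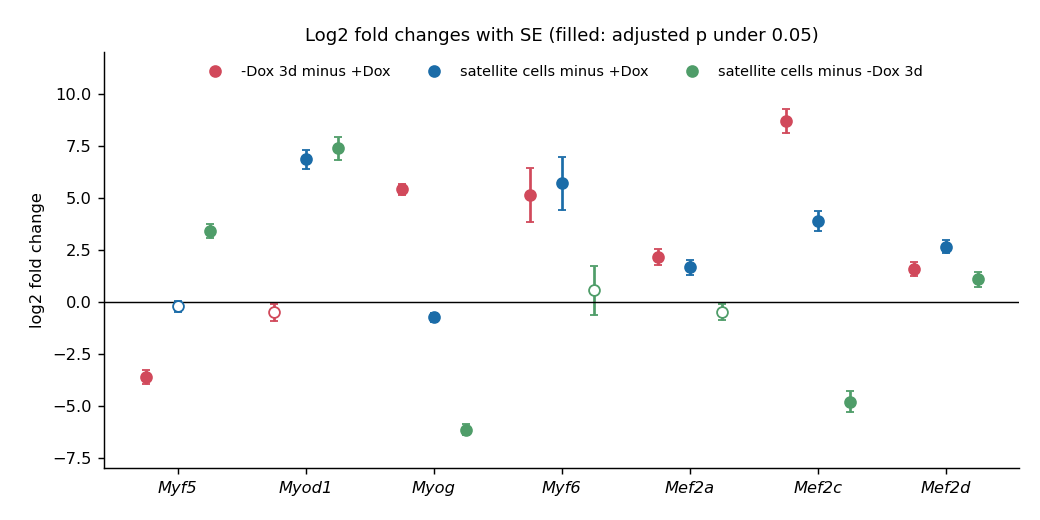
Log2 fold change (bars: SE) of each gene in the 3 comparisons, with filled points for an adjusted p under 0.05 and open points for the rest. Mef2c reaches 8.68 in -Dox 3d minus +Dox, Myod1 is at 6.84 and 7.36 in the satellite cell comparisons, and Myog is at -6.16 in satellite cells minus -Dox 3d.

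Myf5 took most of the MRF family's RNA in +Dox and satellite cells and Myog in -Dox 3d, when levels were compared per length (counts per kilobase of merged exons, scaled to the TMM library size). In +Dox, Myf5 made up 95.8% ± 0.79 (SD over 3 libraries) of the summed level of the 4 MRF genes, and Myog 4.03% ± 0.83. In -Dox 3d, Myog made up 95.3% ± 0.97 (SD, n = 2) and Myf5 4.53% ± 0.93. In satellite cells, Myf5 made up 80.4% ± 3.84 (SD, n = 3), Myod1 17.1% ± 3.56 and Myog 2.29% ± 0.34.

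The summed MRF level per length was 1523 ± 423 in the 3 +Dox libraries, 2623 ± 274 in the 2 -Dox 3d libraries and 1546 ± 161 in the 3 satellite cell libraries (SD). The Mef2 sums were far lower, at 8.29 ± 2.21, 178 ± 4.55 and 38.5 ± 8.75. Mef2c made up 4.06% ± 1.81 of the Mef2 level in +Dox, 82.5% ± 1.06 in -Dox 3d and 13.7% ± 1.34 in satellite cells. Mef2a and Mef2d shared most of it in +Dox (61.1% ± 10.8 and 34.9% ± 12.5) and in satellite cells (43.1% ± 6.38 and 43.2% ± 5.73).

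Ordered by level per length, +Dox ran Myf5, Myog, Mef2a, Mef2d, Myod1, Mef2c, Myf6, and the library ranges of Mef2a and Mef2d, and of Mef2d and Myod1, overlapped. The order in -Dox 3d was Myog, Mef2c, Myf5, Mef2a, Mef2d, Myf6, Myod1, with an overlap for Myf6 and Myod1. In satellite cells it was Myf5, Myod1, Myog, Mef2d, Mef2a, Mef2c, Myf6, with overlaps of Mef2d with Mef2a and of Mef2c with Myf6. All other neighbours stood apart in the libraries measured.

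**Figure D3:**
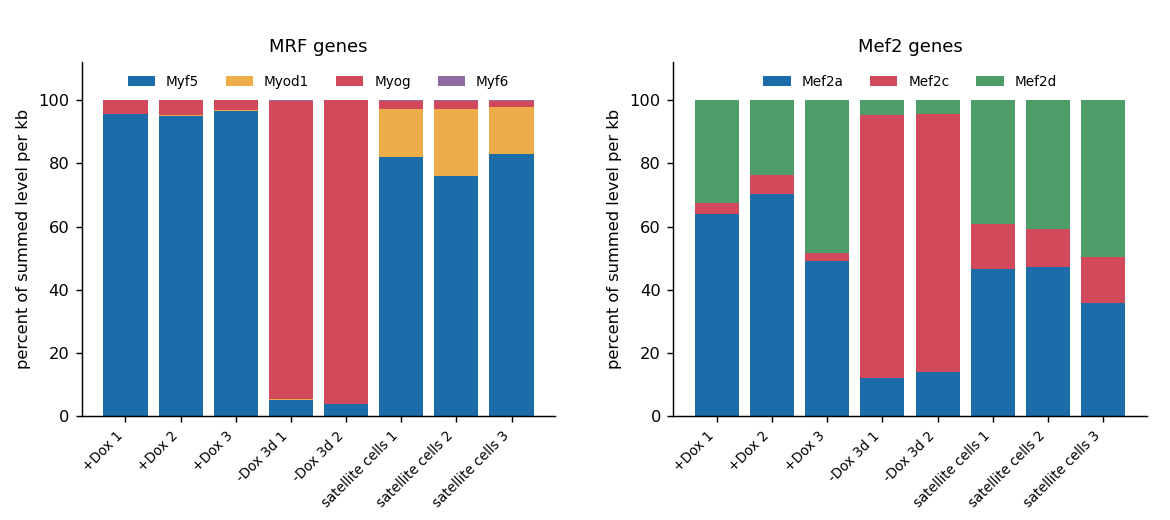
Share (percent) of the summed level per kilobase taken by each MRF gene (left) and each Mef2 gene (right) in the 8 libraries. Myf5 fills most of the MRF bar in +Dox (95.8% on average) and satellite cells (80.4%), Myog fills it in -Dox 3d (95.3%), and Mef2c fills most of the Mef2 bar only in -Dox 3d (82.5%).

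The bHLH partners and inhibitors hold the E proteins that pair with the MRFs and the Id and Hey proteins that oppose them. Of the 22 genes listed, 20 were tested. After Dox withdrawal 3 were higher and 5 lower (15.0% and 25.0% of the tested list genes, against 4.66% and 3.04% of all tested genes), with a list median log2 fold change of -0.89. Id2 and Id3, inhibitors that bind E proteins, went from 14820 ± 3415 and 71286 ± 23652 normalized counts in the +Dox group to 3026 ± 219 and 14646 ± 1503 after withdrawal (SD over 3 and 2 libraries), log2 fold changes of -2.29 and -2.28. The other genes named by rule were Id4, at 152 ± 50.4 in +Dox and 0.46 ± 0.65 in -Dox 3d, and Heyl, a Notch target, at 25.5 ± 22.1 and 440 ± 156. In satellite cells against +Dox, 5 were higher and 1 lower (25.0% and 5.0%, against 25.1% and 19.8% of all tested genes), with a median of 0.39. Against -Dox 3d 11 were higher and 1 lower of 20 tested (against 20.9% and 18.1% of all tested genes), with a median of 1.73. Heyl stood at 22980 ± 12868 and Hey1, another Notch target, at 3699 ± 1032 in satellite cells, and Bhlhe40 at 21549 ± 9021 against 1331 ± 646 in +Dox. Msc, a bHLH repressor, was at 3616 ± 1629 in satellite cells, at 0.25 ± 0.43 in +Dox and listed at 0 in both -Dox 3d libraries.

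Of the 28 Mef2 and MRF coregulators, all tested, 2 were higher and 2 lower after Dox withdrawal (7.14% each, against 4.66% and 3.04% of all tested genes), with a median log2 fold change of -0.27. Vgll2 and Akap6 rose by log2 fold changes of 3.01 and 2.82, and Suv39h1, a histone methyltransferase, and Hdac7, a class IIa histone deacetylase that represses Mef2 proteins, fell by 2.30 and 1.62 on the log2 scale. In satellite cells against +Dox 9 were higher and 4 lower (32.1% and 14.3%, against 25.1% and 19.8%; median 0.41). Vgll2, Map2k6, Sirt1 and Hdac4 (a class IIa deacetylase) rose by log2 fold changes of 5.32, 4.25, 3.81 and 2.49. Against -Dox 3d 10 were higher and 3 lower (35.7% and 10.7%, against 20.9% and 18.1%; median 0.87), with Sirt1 and Vgll2 higher by log2 fold changes of 3.77 and 2.31 and Akap6 lower by 2.94 (log2 fold change -2.94).

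Of the 23 other regulators upstream of the MRFs, 20 were tested. Dox withdrawal called 2 higher and 1 lower (10.0% and 5.0%, against 4.66% and 3.04% of all tested genes; median 0.35), namely Sox6 and Mkl2 higher (log2 fold changes 4.76 and 1.08) and Pax7 lower (-5.71). In satellite cells against +Dox 7 were higher and 2 lower (35.0% and 10.0%, against 25.1% and 19.8%; median 0.26). Eya1 and Sox6 rose by log2 fold changes of 6.50 and 6.09, Meox2 stood at 467 ± 363 against 0.30 ± 0.53 normalized counts, and Eya2 fell by 4.83 on the log2 scale. Against -Dox 3d 3 were higher and 3 lower (15.0% each, below the 20.9% and 18.1% of all tested genes; median 0.36), among them Pax3 higher (log2 fold change 3.31), Pax7 higher (4.604), and Tead4 and Eya2 lower (-4.95 and -3.58).

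The list of differentiation genes with E-box or Mef2 regulation holds 44 symbols, of which 42 are in the count tables and 41 were tested. After Dox withdrawal 34 were higher (82.9%, against 4.66% of all tested genes), none lower (against 3.04%) and 7 did not pass the test. The list median was 7.87, against -0.005 over all tested genes. The heavy chain gene Myh1 went from 0.49 ± 0.86 to 13458 ± 2135 normalized counts, Myh7 from 0.25 ± 0.43 to 3184 ± 989, the light chain gene Myl4 from 17.96 ± 14.7 to 92362 ± 10557 and Casq2, a calcium-binding protein of the sarcoplasmic reticulum, from 38.6 ± 26.3 to 77810 ± 4838. Satellite cells against +Dox had 16 higher and 9 lower of 41 tested (against 25.1% and 19.8% of all tested genes; median 1.23), with Ckm (creatine kinase) higher by a log2 fold change of 6.84, Hspb7 by 5.78 and Mybpc1 by 5.56, and Myom2 lower (-9.13). Against -Dox 3d 3 were higher and 33 lower (7.32% and 80.5%, against 20.9% and 18.1%), with a median of -7.32. Myh3 and Tnnc1 stood at 8.45 ± 9.15 and 35.0 ± 30.6 in satellite cells and at 62956 ± 7947 and 203890 ± 20377 in -Dox 3d.

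Each member's levels over the 8 libraries were also compared with every other tested gene. The 3 genes most like each member by Pearson's r of log2(normalized count + 1) are given as a description only, since the 8 points share 3 groups. They were Pcna, Dnm3 and Id4 for Myf5 (r 0.991, 0.986 and 0.986), Inafm2, Ngef and Rnf19b for Myod1 (0.999, 0.998 and 0.997), 4933406C10Rik, Myh6 and 1500017E21Rik for Myog (0.994, 0.994 and 0.993) and Eif4a2, As3mt and Zfp608 for Myf6 (0.981, 0.981 and 0.981). They were Inpp4b, Rap1gap2 and Ch25h for Mef2a (0.994, 0.990 and 0.990), Myot, Trdn and Myom1 for Mef2c (0.992, 0.986 and 0.985) and Gbp6, Sec63 and Pdp1 for Mef2d (0.995, 0.994 and 0.992).

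Chromatin at the start sites was read as deposited regions within 1 kb of the gene's annotated 5′ end. The start lies at position 106923190 of chromosome 10 for Myf5 and 106931785 for Myf6 (both on the minus strand, 8595 bases apart), at 53631844 on chromosome 7 for Myod1, 136186581 on chromosome 1 for Myog, 74517744 on chromosome 7 for Mef2a, 83643033 on chromosome 13 for Mef2c and 87946294 on chromosome 3 for Mef2d. In +Dox, 5 of the 7 starts had an ATAC-seq peak, against 64.1% of the 18902 coding genes, and in -Dox 3d 4 of 7 did, against 66.6%. Fold enrichments below are MACS2's. The lists hold between 42700 and 172103 peaks, so the percentage in brackets after a fold gives the share of that list's own peaks with a lower fold.

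The Myf5 start was open in every list except C2C12 myoblasts. Its fold enrichment was 31.6 in +Dox, where 94.9% of the peaks in the list were lower, 12.7 (85.0%) at 12 h, 16.5 (84.6%) at 24 h and 9.90 (73.9%) at 3 days after withdrawal, and 30.5 (97.0%) in satellite cells. It was lower in -Dox 3d than in +Dox or satellite cells, as was its RNA.

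The Myog start had a peak already in +Dox. Its fold enrichment was 20.7 there (90.4% of peaks lower), 5.26 (55.1%) at 12 h, 6.17 (55.9%) at 24 h, 3.61 (32.3%) at 3 days and 23.0 (93.3%) in iPax7 myotubes. No peak was listed in satellite cells or in any C2C12 myoblast list, and C2C12 myotubes had 8.93 (67.5%). Its peak was lower at 3 days than in +Dox while its RNA was 42.2-fold higher. H3K27Ac, a mark of active chromatin, covered 1893 bases of the Myog window in +Dox and 1545 in -Dox 3d. H3K4me1 (an enhancer mark) covered 1488 and 1862, and H3K4me3 (a promoter mark) 1779 and 1863. Each change ran with the list sizes given below.

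The Myod1 start had no ATAC-seq peak in any iPax7 list, including myotubes, where its RNA was not measured. It had a fold enrichment of 12.9 (83.9%) in satellite cells, 10.8 (74.4%) in C2C12 myotubes, 9.60 (65.2%) in flag control and 6.64 (54.2%) in Pax7-flag myoblasts. The H3K27Ac list nonetheless covered all 2001 bases of the window in +Dox and 618 in -Dox 3d. That fall ran with the list sizes (119528 against 90168 regions). H3K4me3 covered 875 bases in +Dox and 0 in -Dox 3d, against the list sizes (94067 against 214172 regions). H3K4me1 covered 0 and 221, with them (186990 against 243932).

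The first annotated start of Mef2c had a peak of 4.48-fold (44.5%) in +Dox, none at 12 h, 24 h or 3 days, and peaks of 8.33 (67.8%) in iPax7 and 9.63 (70.4%) in C2C12 myotubes. Its second start, 20.9 kb downstream at position 83663976, had a peak in every ATAC-seq list except C2C12 myoblasts. Histone marks changed at the first start: H3K27Ac, H3K4me1 and H3K4me3 covered 0 bases of the window in +Dox and 1302, 1221 and 914 in -Dox 3d. The lists differ in size (119528 against 90168 H3K27Ac regions, 186990 against 243932 for H3K4me1 and 94067 against 214172 for H3K4me3), so the gain in H3K27Ac ran against the list sizes and the others with them. H3K27me3, a repressive mark, covered none of the 7 starts in either iPax7 list, against 21.2% and 19.4% of all coding genes. At the second Mef2c start it covered 564 of the 2001 bases in +Dox and 0 in -Dox 3d, a loss that ran with the list sizes (178271 against 139870 regions). H3K4me1 and H3K4me3 already covered 1702 and 1585 bases at this second start in +Dox, and 1062 and 1811 in -Dox 3d.

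Mef2a and Mef2d were open in all 10 ATAC-seq lists, with folds of 4.92 (49.4%, C2C12 myoblasts) to 32.6 (94.7%, -Dox 3d) for Mef2a and 12.4 (88.2%, C2C12 myoblasts) to 53.2 (98.3%, +Dox) for Mef2d. Myf6 had an ATAC-seq peak only in iPax7 myotubes (6.62-fold, 56.7%), for which no RNA was measured. Its RNA was counted in -Dox 3d and in satellite cells, and neither list held a peak there.

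**Figure D4:**
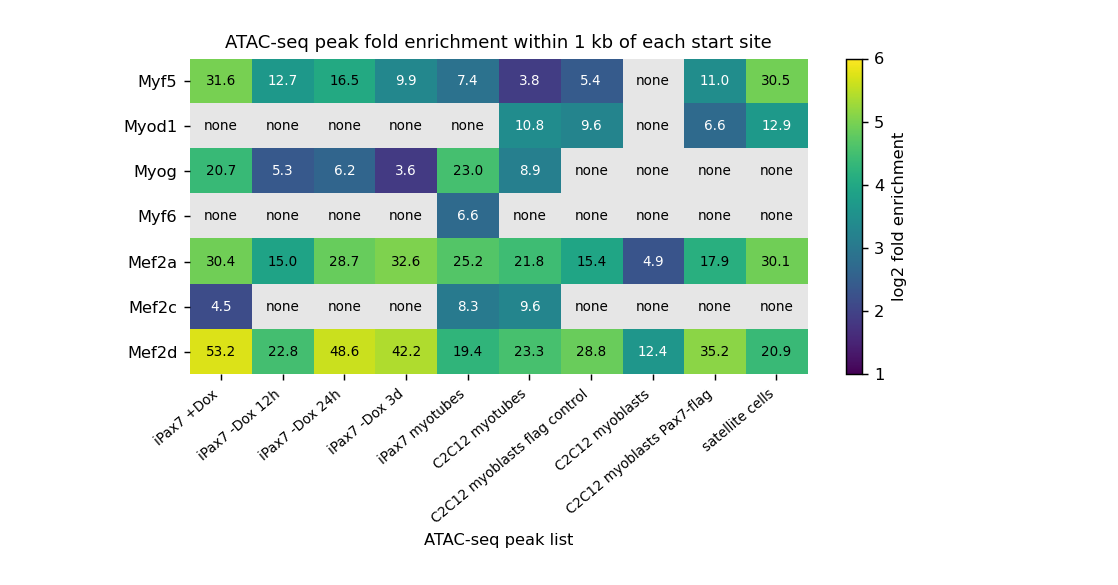
Fold enrichment of the strongest ATAC-seq peak within 1 kb of each start in the 10 peak lists, coloured on a log2 scale, with grey and "none" where no peak was listed. Mef2a and Mef2d have a peak in every list, Myod1 has none in the iPax7 lists, and Myog falls from 20.7 in +Dox to 3.61 at 3 days and reaches 23.0 in iPax7 myotubes.

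Of the 2455 Pax7-bound regions listed in +Dox, 3 lay within 200 kb of a member's start, near Myf5, Myf6 and Myod1. By the paper's methods, this list kept peaks seen in more than a single +Dox sample and left out any seen without Dox. The paper states that this probably gives too low a number of Pax7 sites. A Pax7 region lies within that distance of 31.4% of coding genes, so 3 of 7 members is near the background. The Myf5 and Myf6 starts lie 8595 bases apart and share the same regions, so these members do not count separately. No region of this list lay within 200 kb of Myog, Mef2a, Mef2c or Mef2d. Sites that keep Pax7 without Dox would be missing from it.

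The first, chr10:106918854-106919807, lies 3.9 kb beyond the Myf5 start, past the end of the gene and between genes. The second, chr10:107034081-107034599, lies in an intron of Ptprq, with its centre 111150 bases before the Myf5 start and 102555 bases before that of Myf6. The last, chr7:53568482-53569315, lies between Otog and Myod1, 62.9 kb before the Myod1 start. The 200 bases at the centre of the second and the last, the regions with the strongest accessibility in +Dox, are shown on the strand of the member, with the homeodomain core TAAT (either strand) in capitals.
Pax7 region in Ptprq, chr10:107034240-107034439: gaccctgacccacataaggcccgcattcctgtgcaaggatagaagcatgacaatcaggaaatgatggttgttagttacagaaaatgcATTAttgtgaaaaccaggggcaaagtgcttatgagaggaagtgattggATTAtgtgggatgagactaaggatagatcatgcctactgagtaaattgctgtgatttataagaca
Pax7 region before Myod1, chr7:53568798-53568997: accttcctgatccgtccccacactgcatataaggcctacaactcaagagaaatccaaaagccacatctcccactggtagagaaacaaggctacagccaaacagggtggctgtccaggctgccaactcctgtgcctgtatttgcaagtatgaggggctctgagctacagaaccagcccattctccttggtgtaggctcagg
The core occurs in 72.1% of all 200-base centres of Pax7 regions and in 42.5% of promoters. The centre in Ptprq holds 2 matches and the centre before Myod1 holds none, though the full 834-base region holds 4. The paired-domain core GTCACG is in 7.25% of the centres and in none of the 3 full regions.

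The region in Ptprq had a +Dox ATAC-seq fold of 23.7 (92.1% of peaks lower) and none at 12 h, 24 h or 3 days or in iPax7 myotubes. The flag control C2C12 myoblasts had no peak there, and Pax7-flag myoblasts had one of 20.4 (86.6%). In satellite cells the peak was 2.93-fold, with 3.1% of the peaks lower. H3K27Ac covered 83.2% of the region and H3K4me1, an enhancer mark, 100.0% in +Dox, and both covered 0 in -Dox 3d. A peak was thus listed there in +Dox, in Pax7-flag myoblasts and in satellite cells, and in no other ATAC-seq list. Over all 2455 Pax7 regions, H3K27Ac overlapped 73.2% in +Dox and 37.9% in -Dox 3d, and H3K4me1 overlapped 91.2% and 73.8%. The H3K27Ac list was smaller in -Dox 3d (90168 against 119528 regions) and the H3K4me1 list larger (243932 against 186990).

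The region before Myod1 had a +Dox ATAC-seq fold of 34.9 (95.8% of peaks lower), then 3.39 (27.1%) at 12 h, 7.52 (63.8%) at 24 h, 5.83 (55.6%) at 3 days and 4.90 (37.0%) in iPax7 myotubes. It was open in satellite cells at 16.2 (88.9%) and in Pax7-flag myoblasts at 13.9 (78.0%), and had no peak in C2C12 myoblasts, flag control myoblasts or C2C12 myotubes. H3K27Ac covered 86.7% of it in +Dox and 100.0% in -Dox 3d. It was open in +Dox, where Myod1 RNA was at 118 to 321 normalized counts and no peak was listed at the Myod1 start.

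The region beyond Myf5 was weaker, with folds of 4.30 (42.5%) in +Dox, 2.92 (15.0%) at 12 h and 2.59 (5.1%) at 24 h, and none at 3 days or in satellite cells. H3K27Ac covered 100.0% of it in +Dox and 29.8% in -Dox 3d, and 100.0% in Pax7-flag myoblasts against none in flag control myoblasts. Among all 2455 Pax7 regions, an ATAC-seq peak overlapped 95.4% in +Dox, 68.0% at 3 days, 71.0% in Pax7-flag and 38.6% in flag control myoblasts and 53.0% in satellite cells. H3K27Ac overlapped 64.4% of these regions in Pax7-flag and 40.6% in flag control myoblasts.

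**Figure D5:**
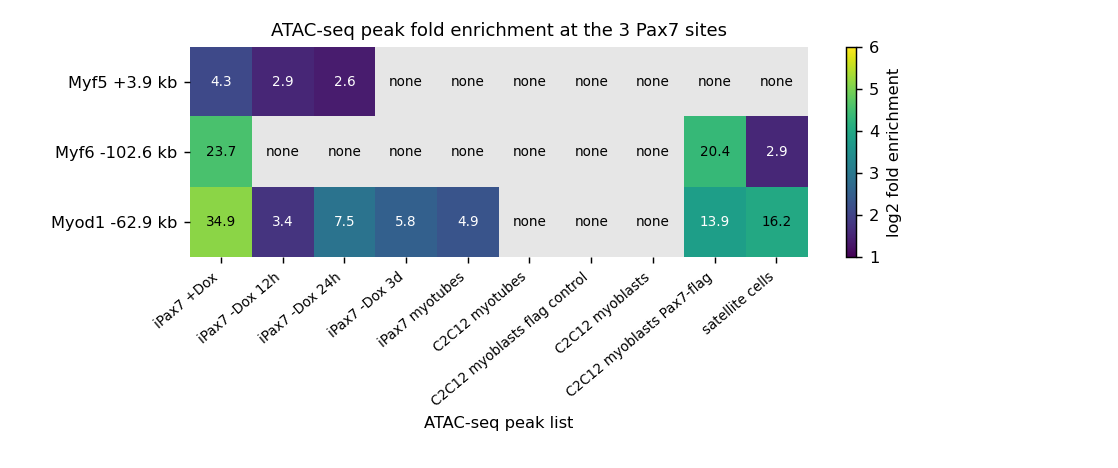
ATAC-seq fold enrichment at the 3 Pax7 regions near a member, by peak list, named by the nearest member and the distance of the region's centre from its start (Myf6 -102.6 kb is the region in Ptprq). The region in Ptprq has 23.7 in +Dox and 20.4 in Pax7-flag myoblasts and none after withdrawal, and the region before Myod1 has a peak in every iPax7 list, in Pax7-flag myoblasts and in satellite cells.

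The genes next to these regions were read from the same count tables. Ptprq, a receptor phosphatase, measured 718 to 2540 normalized counts in +Dox, 363 and 373 in -Dox 3d and 75.04 to 452 in satellite cells, with adjusted p by edgeR of 0.170 for withdrawal and 0.0132 for satellite cells against +Dox. Otog measured 1441 to 1595 in +Dox, 1818 and 1991 in -Dox 3d and 0 to 58.0 in satellite cells. Lin7a, past the end of Myf5, measured 0 to 14.3 in the iPax7 libraries and 3669 to 7506 in satellite cells, and Otogl measured 26.8 and 55.1 in -Dox 3d and was listed at 0 in the other libraries.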

How the data were processed

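RNA-seq, ATAC-seq and ChIP-seq files were used as deposited. Per the labels and the submitters' processing notes, the authors' reads were aligned to mm9 and counted per gene (TopHat2 2.0 and HTSeq 0.6 are named), and the deposited RNA values are raw counts. The authors made the ATAC-seq lists with a peak caller (MACS2 2.0.10 is named) and deposited each peak's fold enrichment ratio. The authors also deposited each peak's −log10 p-value and −log10 q-value, as the caller gave them. The histone and Pax7 lists give coordinates. The annotation and strand setting of the counting are not given in the sources used here.

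Genes were tested with edgeR 4.0.16 (R 4.3.3) on all 8 libraries, with 1 mean per group, TMM scaling and filterByExpr, which kept 14836 genes and all 7 members. Each SE was taken as |log2 fold change| / √F, an approximation. Lengths and starts came from GENCODE M1 on NCBI build 37. Other settings tried were DESeq2 1.42.0, other scalings, filters, windows, groups and the leaving out of each library. An exact permutation test of 3 against 2 or 3 libraries cannot go below 0.1. The members and lists were chosen with earlier results of these data known. Named genes were the members, Mef2b, Pax7, up to 4 called genes per list and comparison with the largest log2 fold change (libraries apart between groups, and 100 or more normalized counts on average in the higher one), the 3 most alike genes per member, and the neighbours at a peak; 1 gene that the rule names is not reported here. The tests were checked on simulated data. GEO's growth text gives the Dox dose in mg/ml and the treatment field in µg/ml, and the latter was used.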

Additional observations from a re-analysis of the deposited data

How the results depend on the processing

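Of 484 recomputed values 447 kept their direction, their side of the threshold and, for counts, stayed within 1.5 times, and 19 called values of single genes lost significance with the same direction (Myf6, Mef2a, Mef2d and Myog). The number of genes called after Dox withdrawal was 1142, and 2155 with only the groups compared, 742 with the replicate block and 2275 with DESeq2. Leaving out each library in turn gave 488 to 1444 (withdrawal), 5159 to 6650 (satellite cells against +Dox) and 3204 to 6131 (against -Dox 3d); members called ranged from 3 to 6, 5 to 6 and 4 to 5. Without -Dox 3d library 2 only 3 members were called after withdrawal. Directions turned for uncalled values only: Myf5 in satellite cells against +Dox ranged from -0.436 to 0.024 (without +Dox library 3), and Myf6 against -Dox 3d from -0.203 (without satellite cell library 1) through -0.028 (without -Dox 3d library 2) to 1.367. The cause was not tested. Replicate numbers come from file names. Deviations of same-numbered libraries from their group means correlated between -0.04 and 0.03 over 7 pairs, which are not independent. Such values cannot tell whether same-numbered libraries were prepared together. The starts with a region in the C2C12 flag control H3K4me1 list numbered 2, and 1 with a window of 500 bases, 5 with 2 kb and 1 by peak centre; Pax7-flag H3K27Ac gave 3 by peak centre in place of 5, and Pax7-flag H3K4me3 gave 5 with 2 kb in place of 3. Myf6 in +Dox is limited by counts of 1 to 10.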
